A study of Mus musculus with 32 samples.

Results

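Cells of 2 kinds, sorted from the same 6 mouse gliomas, were compared by RNA sequencing at the stage the labels name Endpoint and describe as dormant. One sort took CD11b+ Gr.1- cells, labelled TAM, the macrophages and microglia of the tumour. The other took PDGFRA+ cells, labelled TC. The 12 Endpoint libraries, all TAM and TC columns of that stage, form 6 pairs by mouse identifier (49823, 49825, 49830, 49831, 49843 and 49845) out of 32 libraries in the series, and all 23337 genes of the table were considered. Tumours had been started in XFM mice at 5 to 6 weeks of age by placing DF-1 cells in the brain. DF-1 is a chicken fibroblast line, here carrying PDGFB, a platelet-derived growth factor chain. Mice entered the trial at a tumour volume of 20 to 40 mm3 and were dosed each day until symptoms or until 26 weeks of age. The agent at Endpoint was BLZ945, an inhibitor of the CSF-1 receptor, so both sorts of every pair came from treated mice. The label for the agent reads BLZ945 in all 32 libraries, Vehicle included. Vehicle mice (5 pairs) and mice at the stage named Rebound (4 pairs among 10 libraries), sorted by the same gates, served only to show where the Endpoint difference stood apart. Replicates were different mice. The PDGFRA gate takes any cell with that receptor on its surface, and nothing in the labels separates tumour cells from host cells within it.

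Macrophages and microglia commonly depend on signals through the CSF-1 receptor, although the TAM cells at Endpoint were recovered from mice dosed with its inhibitor. They are known for engulfing dead cells, degrading them in lysosomes, making complement and presenting peptides on MHC molecules. PDGFRA is the receptor that marks oligodendrocyte progenitors in the brain, and it drives proliferation in PDGFB-induced gliomas. Fibroblasts of the meninges and of the choroid plexus, the tissue that secretes cerebrospinal fluid, also carry PDGFRA.

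The TAM libraries held 9543888 to 15789460 counts and the TC libraries 4180176 (mouse 49843) to 14029216 counts, in which every count is an even number. TAM libraries resembled each other (Pearson's r of log2 CPM 0.952 to 0.978 over 15 pairs of libraries, a description across genes). TC libraries varied more, from 0.754 to 0.942. The ribosomal precursor Rn45s took 3.69 to 6.54% of TAM counts, and 6.35 to 7.8% of TC counts in 5 mice but 16.9% in 49843. Levels below are CPM, counts divided by the library total and put on a common scale, after TMM scaling, which adjusts for differences in composition between libraries. In a bulk library, fewer cells of a type and less RNA per cell cannot be told apart.

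Defining markers matched the TAM label in each mouse. The sum of 19 myeloid markers was 66660 to 74570 CPM in TAM and 2866 to 6888 CPM in the TC libraries of 5 mice, with 16340 CPM in TC of 49843. Pdgfra, the gene of the gate (chr5:75152292-75198215, GRCm38), had a lowest, median and highest level of 49.2, 90.7 and 468 CPM in TC and 0.223, 1.04 and 10.9 CPM in TAM. The groups did not overlap. The label TC fitted less evenly. The summed 14 markers of oligodendrocyte progenitors and tumour cells were 330.5 to 553.4 CPM in TC of 5 mice and 2842 CPM in 49843, against 30.03 to 81.14 CPM in TAM. Choroid plexus and ependymal markers (12 genes) summed to 5607 to 66340 CPM in TC of 5 mice and to 196400 CPM in 49845, against 60.65 to 158.3 CPM in TAM. T and NK cell markers (13 genes) summed to 5270 to 6978 CPM in TC of 4 mice, and to 42.9 and 15.04 CPM in TC of 49843 and 49845. Because of these values the sort is called PDGFRA-sorted cells or TC here, not tumour cells. Results that rest on 49843 and 49845 are also given without both mice. Both were picked on these marker values, so fits without them only describe genes that follow the markers and do not test them.

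**Figure D1:**
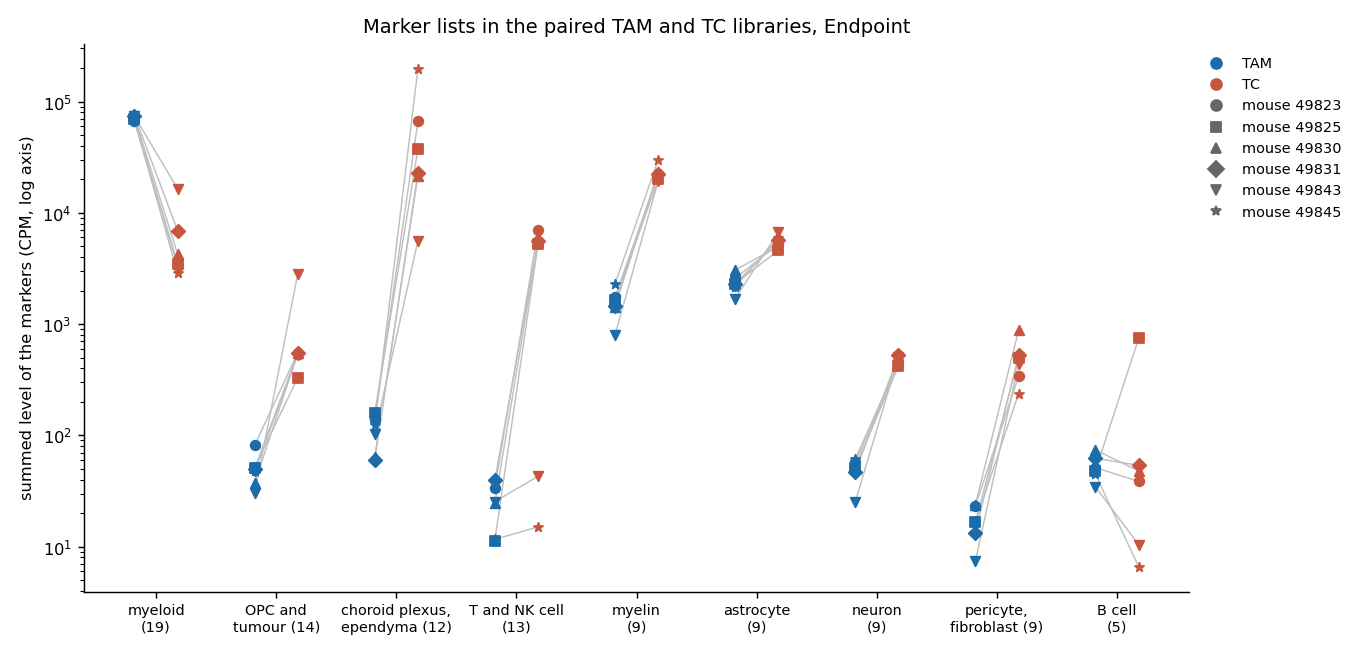
Summed CPM of marker lists (log axis) in the TAM and TC library of each of the 6 Endpoint mice, one symbol per mouse, with the libraries of a mouse joined by a line. Myeloid sums are between 66660 and 74570 CPM in TAM and lower in every TC library, while T and NK cell sums are 5270 CPM or more in 4 TC libraries and at most 42.9 CPM in the TC libraries of 49843 and 49845.

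In all, 13389 genes passed the filter on low counts and 6193 of them (46.3%) differed between the sorts at an adjusted p under 0.05 (edgeR's quasi-likelihood test with mouse as a block and Benjamini-Hochberg adjustment). Of these, 2627 (19.6% of genes tested) were higher in TAM and 3566 (26.6%) were higher in TC. Without 49843 and 49845 the counts were 3077 and 3515. Large differences were mostly on the TC side. More than 8-fold differences among called genes numbered 461 in TAM and 1812 in TC, and more than 32-fold differences 39 and 716. The libraries of the 2 sorts did not overlap for 1742 genes higher in TAM (13%) and 2654 higher in TC (19.8%). The median log2 difference (TAM minus TC) over all genes tested was -0.03, and each list median below is to be read beside it. Each list count is to be read beside the 19.6% and 26.6% of all genes called. A gene nearly absent from TAM passed the filter only through the TC libraries, and the reverse, which favours its call. When a call also had to exceed a fold of 2, 1104 genes were higher in TAM and 2276 in TC.

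**Figure D2:**
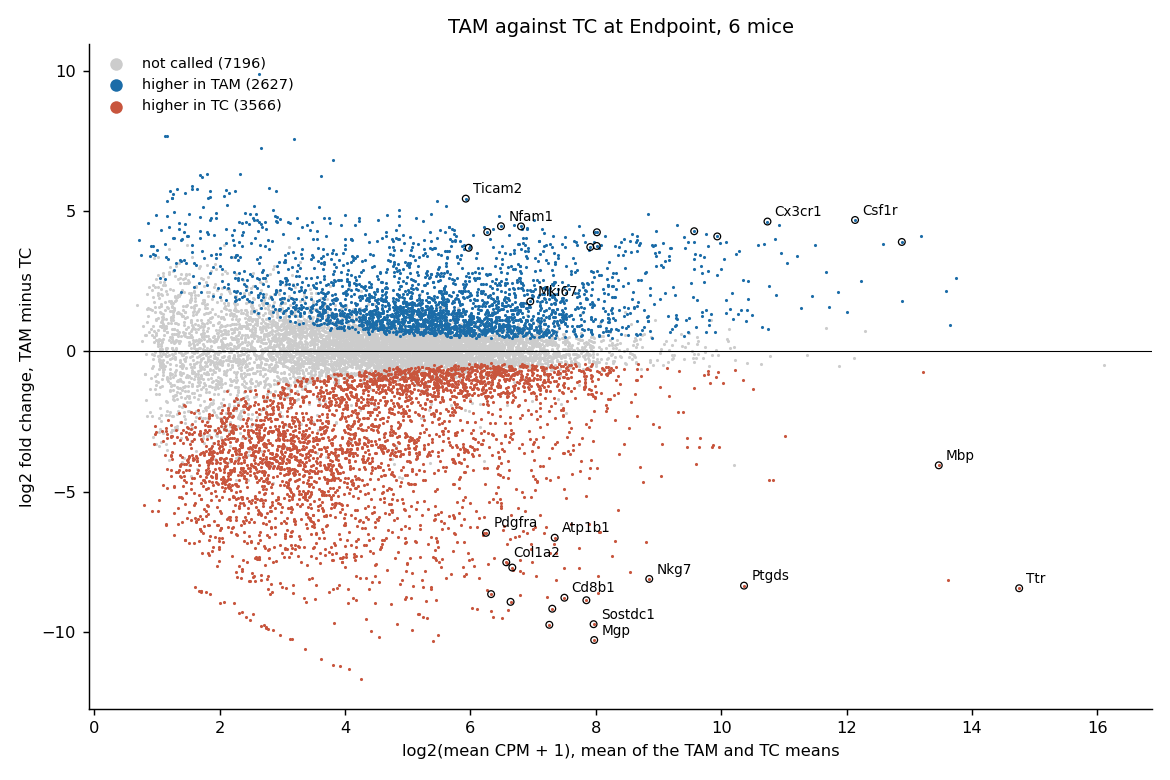
Level of each of the 13389 tested genes as log2 of mean CPM + 1 (horizontal axis) against the log2 difference TAM minus TC at Endpoint (vertical axis), with called genes coloured by direction, named genes circled and some of them labelled. Differences above 5 log2 units are rare on the TAM side (39 genes) and frequent on the TC side (716 genes).

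Myeloid identity genes were higher in TAM without exception. All 19 of the 19 myeloid markers were called, with a median log2 difference of 3.85. Csf1r, the receptor that BLZ945 blocks, had 7261, 8381 and 9891 CPM (lowest, median, highest) in TAM and 170, 267 and 1234 CPM in TC. Every TAM library was above every TC library, and the highest TC value was that of 49843. The difference was 4.68 ± 0.46 log2 units (SE), or 25.6-fold, with an adjusted p of 5.45e-05. Itgam encodes the CD11b of the gate, and its levels were 722, 897 and 984 CPM against 14.2, 19.6 and 154 CPM (29.8-fold, adjusted p = 7.45e-05).

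The promoters of 4 of these co-varying markers are shown because they hold the purine-rich core GAGGAA, the word at the centre of binding sites of PU.1, the macrophage transcription factor encoded by Sfpi1. The letters were searched on both strands in the 250 bases before the start site of the RefSeq promoters (GRCm38.p6), and capitals mark the word or its reverse complement, TTCCTC. Each sequence below is 100 bases, read on the strand of its gene. The Itgam, Aif1 and C1qb sequences end 1 base before the start site and the Ctss sequence ends 112 bases before it. They lie at chr7:128062540-128062639 (plus strand), chr17:35176053-35176152 (minus), chr4:136886201-136886300 (minus) and chr3:95526575-95526674 (plus).
Itgam: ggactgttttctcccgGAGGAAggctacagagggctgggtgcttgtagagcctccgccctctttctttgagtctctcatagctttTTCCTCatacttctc
Aif1: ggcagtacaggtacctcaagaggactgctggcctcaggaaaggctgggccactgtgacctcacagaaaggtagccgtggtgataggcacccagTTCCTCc
C1qb: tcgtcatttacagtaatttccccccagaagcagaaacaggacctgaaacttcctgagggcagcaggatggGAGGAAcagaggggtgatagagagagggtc
Ctss: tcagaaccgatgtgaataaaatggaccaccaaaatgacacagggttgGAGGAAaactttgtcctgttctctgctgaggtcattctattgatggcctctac
The word was present in 9 of the 12 myeloid markers that have a promoter entry (75%), in 3 of 10 progenitor and tumour markers (30%) and in 5 of 8 T and NK cell markers (62.5%). It was present in 3 of 7 choroid plexus and ependymal markers (42.9%), in 25.9% of all 27025 genes of the promoter table (23.3% of its 32851 promoters), and in 26.2% of the genes tested, 29.5% of those called higher in TAM and 26.6% of those called higher in TC that have an entry. The match is a description of letters and not of binding.

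Transcription factors that shape the macrophage and microglial lineage followed the markers. Of 16 tested, 11 were higher in TAM and 0 in TC (median 2.47). Without 49843 and 49845 the counts were 10 and 1. Sfpi1 had 61.9, 75.1 and 89.4 CPM in TAM and 1.74, 5.25 and 28.4 CPM in TC, with no overlap (12.8-fold, adjusted p = 0.000146). Sall1, which maintains microglial identity, had 349 to 576 CPM against 18.6 to 67 CPM (13.2-fold). Irf8 and Mef2c were 10.9-fold and 6.94-fold higher. Maf, Fli1, Nr1h3, Nfatc1 and Nfatc2 did not pass the test.

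Of the CSF receptors and ligands, all 5 genes tested were higher in TAM (median 4.1), namely 4 receptors and Csf1. Csf2ra, Csf2rb and Csf3r, receptors for GM-CSF and G-CSF, were 6.16-fold, 20.4-fold and 17.2-fold higher, each without overlap between the sorts. The ligand Csf1 was the weakest of the 5 calls (19.5, 22.8 and 44.8 CPM in TAM, 6.75, 8.47 and 33.3 CPM in TC, adjusted p = 0.0274), although the groups overlapped and 5 of 6 pairs had the higher value in TAM. Its call was lost without 49825, 49830, 49831 or 49845 and under other alternatives, over which the adjusted p ranged from 0.00251 to 0.352. Il34, the other ligand of the receptor, was too low to be tested, with at most 0.757 CPM in TAM and 0.452 to 9.79 CPM in TC. With other sets of libraries more genes of the list could be tested. Without 49843 and 49845, 4 of 6 were higher in TAM and 1 in TC. For the Endpoint difference in a fit of all 32 libraries, 5 of 7 were higher in TAM and 1 in TC.

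The genes that separated the sorts most evenly were chosen by their weakest pair, among those with at least 100 CPM in the higher sort. On the TAM side the 12 included Nfam1, Ticam2, Cd33, Icosl, P2ry12, Cx3cr1, Hpgd, Gpr34, Clec5a, Gal3st4 and Sall1. Nfam1, an immunoreceptor with an activation motif, had 137, 171 and 204 CPM in TAM and 3.79, 8.55 and 11.5 CPM in TC, or 22-fold more. Ticam2, an adaptor of TLR4 signalling, had 99.3, 113 and 138 CPM against 0.675, 2.67 and 8.13 CPM (43.4-fold, adjusted p = 4.76e-05). The purinergic receptor gene P2ry12 (1196 to 1742 CPM against 38.4 to 185 CPM) and the fractalkine receptor gene Cx3cr1 (2737 to 3842 CPM against 71.4 to 469 CPM) are both hallmarks of microglia. Icosl, the ligand of the T cell costimulator ICOS, was 18.9-fold higher in TAM. Hpgd, which inactivates prostaglandins, was 13.5-fold higher. None of the 12 genes overlapped between the sorts, which the choice by weakest pair favours. Of all genes tested, 13% were higher in TAM without overlap.

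Homeostatic microglial genes were called in TAM in 22 of 25 cases (median 3.72), with Ltc4s, Ecscr and Serpine2 as the exceptions. A list of genes associated with monocyte-derived macrophages divided instead, with 4 of 19 tested higher in TAM and 7 higher in TC (median -1.92). The 4 were Lyz2, F13a1, Ms4a4c and Emilin2. The 7 were Vim, S100a4, S100a6, S100a10, S100a11, Fn1 and Ahr, which fibroblasts, glia and T cells can also express. Without 49843 and 49845 the TC count was 11. Neutrophil markers (4 of 5 tested higher in TAM) summed to 388.4 to 990.8 CPM in TAM and 12.79 to 134.1 CPM in TC, although the gate excluded Gr.1. The list includes Csf3r, counted above among the CSF receptors, so the sum is not a measure of neutrophils alone. S100a8 and S100a9 reached 92 and 42.2 CPM in TAM but were at 0 in at least 1 TAM library, and Cxcr2 was at most 0.287 CPM. Their part in the TAM values was not tested.

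Receptors and enzymes for taking up and degrading dead cells were a large group on the TAM side. Of 14 genes for receptors and bridging proteins of apoptotic cells, 10 were higher in TAM and 3 in TC (median 3.32). Mertk had 496, 679 and 892 CPM in TAM and 35.8, 55.1 and 116 CPM in TC (11.7-fold), and Axl had 800 to 1139 CPM against 71.2 to 274 CPM (8.01-fold). The bridging proteins were divided between the sorts. Pros1 was 11.9-fold higher in TAM. Gas6, which binds the same receptors, was 2.7-fold higher in TC (20.8 to 52.3 CPM against 52.4 to 323 CPM, adjusted p = 0.0078), and Mfge8 and the third receptor of the family, Tyro3, were also higher in TC. Lysosomal genes were higher in TAM in 23 of 31 cases and in TC in 2 cases (Ctsk and Atp6v1a), with a median of 1.95 log2 units. Ctss had 12300, 13886 and 15930 CPM against 543, 786 and 2732 CPM (14.9-fold). Export and storage of cholesterol followed with 9 of 14 genes higher in TAM, among them Abca1, Abcg1 and Lipa, and Pltp higher in TC. Apoe did not pass the test (3583, 5680 and 11550 CPM in TAM, 2339, 3202 and 6278 CPM in TC, adjusted p = 0.0747). Without 49845 its difference was 1.02 log2 units and passed (adjusted p = 0.0031, range over alternatives 0.00065 to 0.991).

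Genes of innate recognition and inflammation were more often higher in TAM than in TC. Complement genes were called in TAM in 12 of 17 cases (median 3.77). C1qb had 4137, 4845 and 7127 CPM in TAM and 192, 261 and 1911 CPM in TC, and the groups did not overlap (14-fold). The 3 complement genes higher in TC were Cd55, Cd59a and Serping1, each of which restrains complement. Serping1, the C1 inhibitor, had 133, 150 and 388 CPM in TC and 0, 0.166 and 2.45 CPM in TAM (adjusted p = 4.14e-05). All 7 Fc receptor genes tested were higher in TAM, and so were 13 of 14 Toll-like receptors and their partners (median 3.34), Tlr5 being the exception. Of 16 inflammatory genes, 9 were higher in TAM and 0 in TC, including Il1a, Il1b, Il6 and Nlrp3. Tnf, Il18, Il16, Osm, Nfkbia, Nfkbiz and Tnfaip3 did not pass.

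Of 15 ligands and receptors of inhibitory signalling tested, 8 were higher in TAM and 3 in TC. The TAM side held receptors (Cd200r1, Havcr2) as well as ligands (Cd274, Lgals9). Sirpa, which receives the CD47 signal against phagocytosis, had 898, 1014 and 1166 CPM in TAM and 68.3, 89.8 and 278 CPM in TC (9.65-fold, adjusted p = 3.65e-05). Its ligand Cd47 had 89.8 to 127 CPM in TAM and 61.1 to 187 CPM in TC and did not pass (adjusted p = 0.401). The ligand Cd200 was higher in TC (0 to 1.29 CPM in TAM, 21.2 to 65.9 CPM in TC, 54.5-fold) and its receptor Cd200r1 higher in TAM (32.2 to 43.6 CPM against 3.61 to 37 CPM, adjusted p = 0.0144). The Cd200r1 call was lost in a fit of all 32 libraries without the mouse block (adjusted p = 0.162, range over alternatives 0.000345 to 0.162). Cx3cl1, the ligand of CX3CR1, was 13.7-fold higher in TC. Among 23 chemokines and their receptors, 9 were higher in TAM, such as Ccl12 and Cxcl16, and 7 in TC, such as Cxcl12 (0 to 0.862 CPM in TAM, 16.4 to 85 CPM in TC, 104-fold).

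Antigen presentation differed by class. For MHC class I, 2 of 15 genes tested were higher in TAM (B2m and H2-M3), 0 in TC, and the list median was 0.31. H2-K1 in TC was 1959, 1595, 1926, 1603, 395.5 and 151 CPM in mouse order, against 867 to 1226 CPM in TAM. The 4 TC libraries with T cell transcripts were above every TAM library and the other TC libraries below every TAM library. Over the 6 pairs the difference was 0.16 ± 0.50 log2 units (adjusted p = 0.809). Without 49843 and 49845 it was -0.56, adjusted p = 0.0151 (range over alternatives 0.0151 to 1), and 3 class I genes were then higher in TC. Leaving out the TC libraries that lay below TAM sets that direction, so this p is no independent test. B2m had 4722 to 6690 CPM in TAM and 700 to 3475 CPM in TC (2.62-fold, adjusted p = 0.00437). For MHC class II, 5 of 10 genes were higher in TAM (H2-DMa, H2-DMb1, H2-Oa, H2-Ob and Cd74, median 2.03). H2-DMa, which loads peptides, had 303, 439 and 465 CPM in TAM and 24.6, 60.7 and 105 CPM in TC (7.29-fold). The peptide-binding chains were spread across the TC libraries. H2-Ab1 was 93.7 to 236 CPM in TAM and 21.2 to 493 CPM in TC (adjusted p = 0.167). The TC library of 49825 had the highest class II sum (4384 CPM against 323.1 to 1038 CPM in the other TC libraries) and the highest sum of B cell markers (745.5 CPM against 6.582 to 53.74 CPM). Without that mouse H2-Ab1 was higher in TAM by 1.61 log2 units (adjusted p = 0.00317, range over alternatives 0.00317 to 0.782). Leaving out the TC library richest in class II favours that direction, and this p was the lowest of the alternatives. The part of B cell transcripts in the class II values was not tested. Of 24 interferon-stimulated genes, 6 were higher in TAM and 1 (Gbp2) in TC, and without 49843 and 49845 the counts were 7 and 7. Over all genes tested 19.6% were higher in TAM and 26.6% in TC. Without both mice 3077 and 3515 of 13697 genes were.

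**Figure D3:**
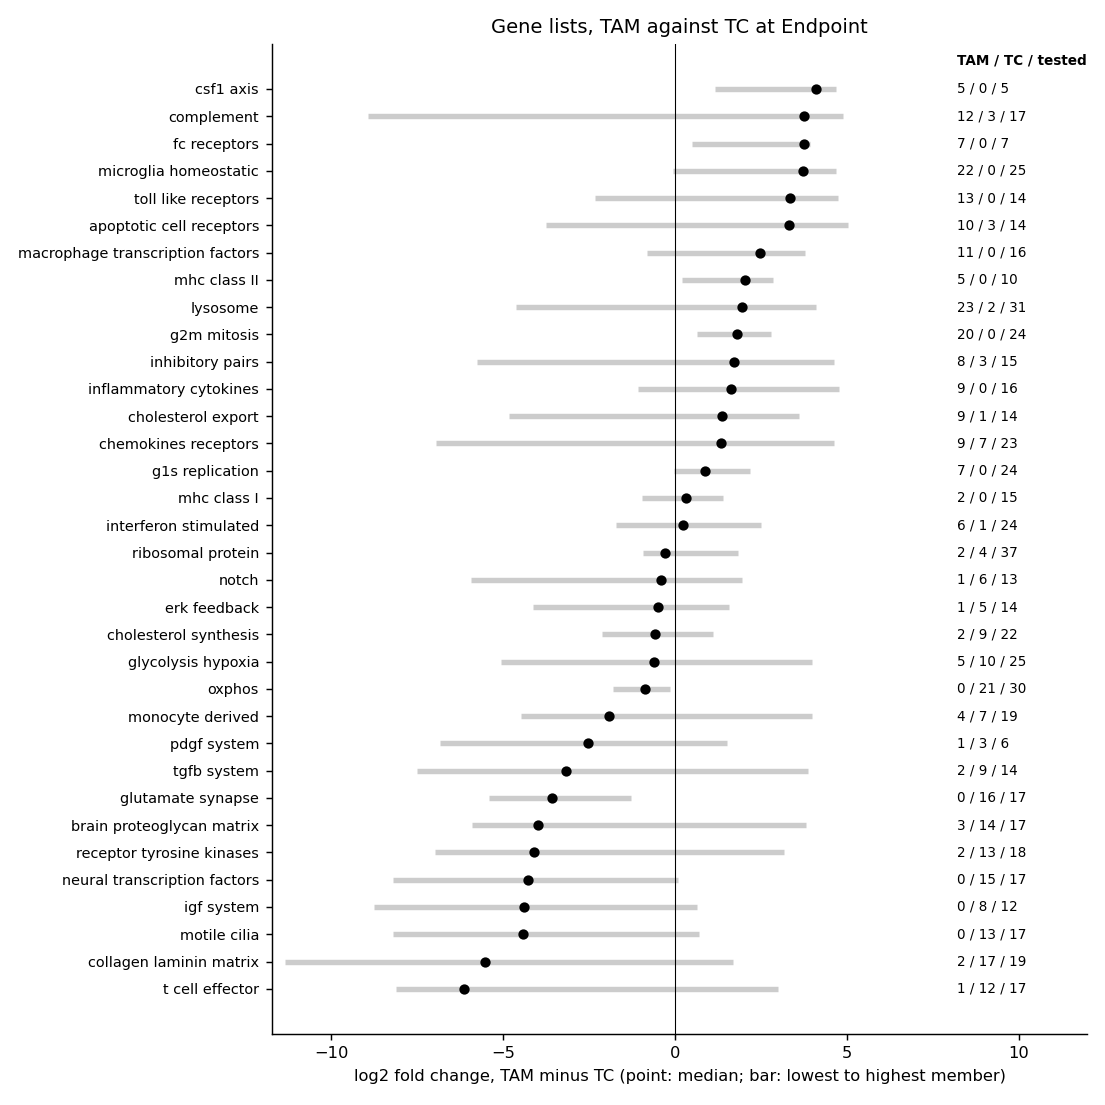
For each of 34 gene lists, the median log2 difference TAM minus TC over its tested genes at Endpoint (point) and the range from its lowest to its highest member (bar), with the numbers called higher in TAM, called higher in TC and tested. Complement, Fc receptor and homeostatic microglial lists have medians of 3.72 to 3.77, and T cell effector and collagen lists have medians of -6.14 and -5.53, beside -0.03 over all genes.

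On the TC side, 10 of the 14 markers of progenitors and tumour cells could be tested and all 10 were higher in TC (median -4.3). Members nearly absent from TAM could be tested only because the TC libraries held them, which favours that count. Pdgfra differed by -6.47 ± 0.76 log2 units (88.5-fold, adjusted p = 0.000148), a gene whose protein the gate selects. Olig1, a transcription factor of the oligodendrocyte lineage, had 21.1, 28 and 304 CPM in TC and 1.11, 1.42 and 2.3 CPM in TAM. Ptprz1, a receptor phosphatase of progenitors, had 89.5, 146 and 608 CPM against 1.08, 14 and 23.4 CPM (12.2-fold). Sox10 had 1.5, 7.19 and 265 CPM in TC and overlapped TAM (0.171 to 1.8 CPM). The TC library of 49843 was the highest for 14 of 14 genes of this list. Genes of the list that were too low for the test included Olig2, at 0 to 27.1 CPM in TC. Of 17 neural transcription factors tested, 15 were higher in TC and 0 in TAM (median -4.26), including Sox9 (31 to 150 CPM against 1.88 to 4.46 CPM, 19.2-fold) and Nfia (158 to 218 CPM against 94 to 132 CPM, 1.75-fold).

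Choroid plexus genes gave the largest list difference in TC, a median of -8.01 log2 units with 10 of 10 tested genes called. Members nearly absent from TAM passed the low-count filter only through the TC libraries, which favours both the count and the median. Ttr, which encodes the thyroid hormone carrier transthyretin and is the abundant secretory product of this tissue, had 55.8, 106 and 146 CPM in TAM. In TC it had 5213, 28364 and 184800 CPM, the lowest in 49843 and the highest in 49845, where it took 14% of all counts. The difference was 348-fold (adjusted p = 2.82e-05). Sostdc1, a secreted BMP antagonist (47, 263 and 1870 CPM against 0, 0.45 and 1 CPM), Folr1, the folate carrier of this epithelium (79.5, 269 and 1775 CPM against 0.341, 1.35 and 2.42 CPM), and Kcnj13, Kl and Otx2 did not overlap between the sorts. The TC library of 49845 was the highest for 11 of 12 genes. Foxj1 and Tmem212, genes of ciliated ependymal cells, were not tested, with Foxj1 at 0.266 to 21.8 CPM in TC. Of 17 motile cilia genes, 13 were higher in TC and 0 in TAM (median -4.41). Whether these transcripts came from cells within the PDGFRA gate was not tested.

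T cell genes were present in the PDGFRA-sorted libraries of 4 mice and near the TAM level in the other 2. Of 11 T and NK cell markers tested, 10 were higher in TC (median -6.59). Without 49843 and 49845 all 13 were, but these mice were picked for their low T cell values. That count was therefore largely set by the choice. Cd3e, a subunit of the T cell receptor complex, had 1.13, 557 and 759 CPM in TC and 0.287, 1.06 and 4.46 CPM in TAM (adjusted p = 0.00987). TC was higher in 6 of 6 pairs, and the lowest TC value lay within the TAM range. Cd8a, the CD8 coreceptor, was at 0 in at least 1 TC library with a median of 344 CPM, and it failed the low-count filter, which asks for expression in 6 libraries. The 12 genes whose pair difference varied most between mice were Nkg7, Cd8b1, Cxcr6, Cd8a, Ccl5, Gimap6, Cd3g, Gzmk, Cd3e, Ctsw, Gimap4 and Lck, and their lowest TC values were 0 to 5.64 CPM. Nkg7, a protein of cytotoxic granules, spanned 0.564, 1200 and 1736 CPM in TC and 0.18, 1.45 and 6.03 CPM in TAM (adjusted p = 0.00534). Ccl5, the chemokine RANTES, had 5.64, 2197 and 5521 CPM in TC and 34.9, 59.9 and 68.6 CPM in TAM and did not pass (adjusted p = 0.0851). Il2rb, an interleukin receptor chain, was the 1 gene of the T and NK list without overlap (2.26, 266 and 448 CPM against 0, 0.479 and 1.21 CPM). Of 17 effector genes tested, 12 were higher in TC and 1, Lag3, was higher in TAM. The calls of Cxcr6 and Gimap6 were lost when a single T cell-rich mouse was left out, with adjusted p up to 0.0712 for Cxcr6 and 0.15 for Gimap6 over all alternatives. The labels give no marker that would tell whether these were T cells in the gate, and this was not tested.

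**Figure D4:**
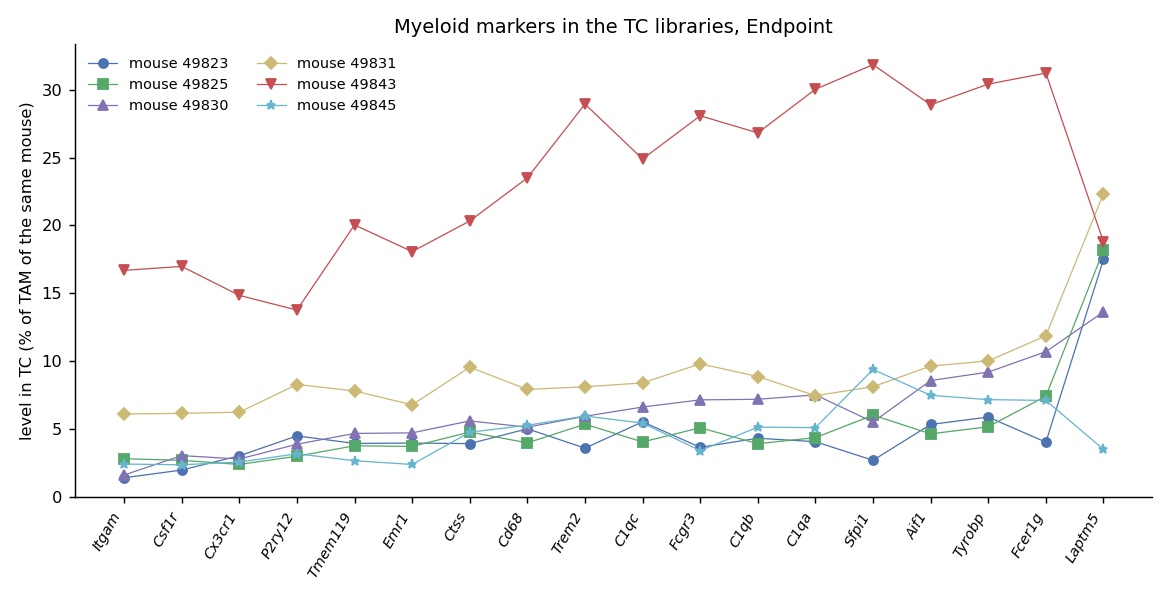
Level of each of 18 of the 19 myeloid markers in the TC library (horizontal axis, ordered by median) as a percentage of its level in the TAM library of the same mouse (vertical axis), one line and symbol per mouse. The medians over all 19 markers are 4 to 8.14% in 5 mice and 23.5% in 49843.

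The reverse comparison shows how much of each sort's defining transcripts appeared in the other. Myeloid markers in TC had a median of 4, 4.08, 5.63, 8.14, 23.5 and 4.79% of the TAM level in mouse order. Laptm5, a lysosomal protein of blood cells, had the highest percentage of the 19 markers in each of the 4 mice with T cell transcripts (13.6 to 22.3%). In the other direction, myelin genes in TAM summed to 4.11 to 8.24% of their TC level, choroid plexus genes to 0.0635 to 1.85% and astrocyte genes to 25.1 to 61.7%. T and NK cell genes in TAM were 0.215 to 0.708% of the TC level in 4 mice and 59.1% and 77.3% in 49843 and 49845. The source of these transcripts, and their part in the size of the differences, was not tested.

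Other cell types of brain were likewise on the TC side. Of 9 astrocyte markers, 8 were higher in TC and 1 in TAM. The exception, the glutamate transporter gene Slc1a3, had 1411 to 2643 CPM in TAM and 560 to 832 CPM in TC (2.76-fold, adjusted p = 0.000661), while the other glutamate transporter gene, Slc1a2, had 68.3 to 218 CPM against 969 to 1662 CPM. Aldoc and Gja1, a glycolytic enzyme and a gap junction protein of astrocytes, were 10.1-fold and 23-fold higher in TC. Myelin genes were higher in TC in 8 of 9 cases (median -3.74), with Mbp at 17800, 20697 and 28530 CPM against 639, 1321 and 2013 CPM, and Mag not passing. All 9 neuronal markers were higher in TC (median -3.26), for example Snap25, a synaptic protein (136 to 260 CPM against 7.19 to 23.4 CPM). Glutamate receptor and synapse genes were called in TC in 16 of 17 cases (12 of 17 without 49843 and 49845). Of 6 endothelial markers tested, 3 were higher in TC, and Pecam1, Flt1 and Kdr did not pass.

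The 12 genes with the most even separation on the TC side, chosen by their weakest pair, were Ptgds, Mgp, Nov, Slc4a10, Islr, Serping1, Col1a2, Ttr, Sulf1, Efemp1, Sostdc1 and Atp1b1. Ptgds, the prostaglandin D synthase of meninges and choroid plexus, had 1474, 2516 and 4574 CPM in TC and 5.04, 7.09 and 12.3 CPM in TAM (326-fold, adjusted p = 2.96e-06). Mgp, an inhibitor of calcification made by mesenchymal cells, had 228, 398 and 1124 CPM against 0, 0.311 and 0.718 CPM. Col1a2, a chain of type I collagen, had 109, 160 and 359 CPM against 0, 0.966 and 2.73 CPM, and Slc4a10, a bicarbonate transporter of choroid plexus, had 106, 445 and 827 CPM against 0.144, 0.634 and 3.01 CPM. None of these genes overlapped between the sorts, which their choice favours, beside 19.8% of all genes tested that were higher in TC without overlap. Of 19 collagen, laminin and related genes, 17 were higher in TC (median -5.53), and the other two, Sparc and Spp1, were higher in TAM. The Spp1 call (61.8 to 1332 CPM against 27.2 to 323 CPM, adjusted p = 0.0386) was lost without 49823, 49825, 49843 or 49845 and under other alternatives (0.00131 to 0.165). Of 17 proteoglycans and partners of brain matrix, 14 were higher in TC and Sdc3, Gpc2 and Spock1 in TAM. Pdgfrb, the receptor of pericytes, did not pass (6.83 to 19.1 CPM against 4.51 to 29.9 CPM, adjusted p = 0.988).

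Growth factor genes were found on both sides. Pdgfb, the ligand used to start the tumours, had 26.8, 33 and 41.1 CPM in TAM and 6.77, 10.2 and 23.6 CPM in TC, without overlap (2.85-fold, adjusted p = 0.00116). Whether the table counts the injected PDGFB with the mouse gene is not given in the sources used here. Pdgfc and Pdgfd were 33.9-fold and 115-fold higher in TC, and Pdgfa did not pass (adjusted p = 0.672). Among IGF genes, 8 of 12 tested were higher in TC and 0 in TAM (median -4.39). Without 49843 and 49845, 7 of 13 tested were higher in TC and 2 in TAM. Igf1, which macrophages can secrete, had 5.75, 8.67 and 117 CPM in TAM and 3.38, 8.38 and 23.3 CPM in TC (adjusted p = 0.367), and 117 CPM was the TAM library of 49843. Igf2, expressed by choroid plexus and meninges, had 41.5, 176 and 952 CPM in TC and 0, 0.446 and 1.44 CPM in TAM (432-fold, adjusted p = 2.62e-05). The binding proteins Igfbp2 (66.4 to 613 CPM against 0.223 to 1.7 CPM) and Igfbp5 (250 to 1278 CPM against 3.06 to 9.8 CPM) and the adaptor Irs1 were also higher in TC without overlap. Igf1r, the receptor of both ligands, was 1.8-fold higher in TC (22.4, 24.6 and 36.6 CPM against 10.3, 11.7 and 26.1 CPM, adjusted p = 0.0367). That call was lost when any single mouse was left out, over a range of 0.0143 to 0.834 for all alternatives. In the TGF-beta family the receptor genes Tgfbr1 (14.6-fold) and Tgfbr2 (3.76-fold) were higher in TAM, and 9 of 14 genes, among them the ligand genes Tgfb2, Tgfb3, Bmp4 and Bmp7 and the receptor genes Tgfbr3, Bmpr1a and Bmpr1b, were higher in TC. Of 18 receptor tyrosine kinases, 13 were higher in TC, such as Egfr, Fgfr2, Fgfr3 and Ntrk2, and Flt3 and Axl in TAM. Of 13 Notch pathway genes 6 were higher in TC and 1 in TAM, and of 14 genes of the feedback on ERK signalling 5 were higher in TC and 1 in TAM. Over all genes tested the shares were 26.6% and 19.6%. Dendritic cell markers (2 of 4 tested higher in TAM, 1 in TC), B cell markers (0 of 2 called) and erythroid markers (1 of 1 higher in TC) were largely too low for the test.

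Mitotic genes were higher in the macrophage sort. Of 24 genes of the G2 and M phases, 20 were higher in TAM and 0 in TC (median 1.79). Their summed level was 1498, 1286, 1342, 1021, 1314 and 1749 CPM in TAM in mouse order and 698.2, 282.6, 358.3, 371.9, 1353 and 142 CPM in TC. In 5 of 6 mice the TAM sum was the higher. In 49843, the mouse with the highest progenitor markers in TC, the TC sum was slightly the higher. Mki67, the proliferation marker Ki-67, had 106, 183 and 244 CPM in TAM and 16.7, 47.3 and 143 CPM in TC. TAM was higher in 6 of 6 pairs, and the ranges overlapped (1.78 ± 0.48 log2 units, adjusted p = 0.0134). Ccnb2, a mitotic cyclin, did not overlap (97.4, 103 and 141 CPM against 4.66, 22.3 and 43.8 CPM, adjusted p = 0.000821), nor did Hmmr (30.4 to 59.5 CPM against 2.63 to 24.8 CPM). Top2a, Nusap1, Ttk and Ndc80 did not pass, with Top2a at 116 to 248 CPM in TAM and 19 to 245 CPM in TC (adjusted p = 0.0673). Without 49843 and 49845 the count was 21 of 24. Against a fold of 2 it was 8. Genes of G1 and S phase showed less, with 7 of 24 higher in TAM and 0 in TC (median 0.87). Mcm3, part of the replicative helicase, was among them (97 to 390 CPM against 25.4 to 75.7 CPM), and Pcna, Mcm5 and Rrm2 were not.

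Energy metabolism leaned to TC by smaller amounts. Of 30 genes of the respiratory chain and ATP synthase, 21 were higher in TC and 0 in TAM, with a median of -0.88 log2 units. Among TC libraries that of 49845, the richest in choroid plexus transcripts, was the highest for 30 of 30 genes, with a sum of 20590 CPM beside 8244 to 10620 CPM in the other TC libraries and 4638 to 6547 CPM in TAM. Without 49843 and 49845 the median was -0.61 and the count 19. The count was 13 without 49823 and 2 against a fold of 2. Ndufa4 and Cox6c differed by -1.81 ± 0.34 and -1.59 ± 0.31 log2 units. Of 25 glycolysis and hypoxia genes, 10 were higher in TC, among them Pfkp, and 5 in TAM, among them the hexokinase gene Hk2 (3.81 ± 0.47 log2 units). Of 22 cholesterol synthesis genes, 9 were higher in TC (5 without 49843 and 49845) and Ebp and Dhcr7 in TAM, beside 26.6% and 19.6% of all genes tested. Ribosomal protein genes lay near the median of all genes (-0.29), with 2 of 37 higher in TAM and 4 in TC.

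The same difference was then set beside that in Vehicle and Rebound mice, in a fit of all 32 libraries. A positive shift means that TAM minus TC was further towards TAM at Endpoint, and a negative shift further towards TC. Against Vehicle, 3484 of 15668 genes tested (22.2%) shifted, 1338 towards TAM (8.54%) and 2146 towards TC (13.7%). Against Rebound, 2314 (14.8%) shifted, 861 towards TAM (5.5%) and 1453 towards TC (9.27%). Both tests use the same Endpoint libraries. The split depended on scaling. With total counts as the only scaling, 78.5% of the calls against Vehicle and 73.4% of those against Rebound lay towards TAM, in place of 38.4% and 37.2%, and the median of all genes moved from -0.12 to 0.64 and from -0.07 to 0.51. Leaving out single Rebound mice moved the count against Rebound to 764 (49849), 877 (49059), 1180 (49041) and 3362 (49827). All Endpoint and Rebound counts are even numbers and Vehicle counts are not, a difference of the files that follows the stage.

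The mitotic list had opposite signs across stages. Its median TAM minus TC was 1.82 log2 units at Endpoint, -0.90 in Vehicle and -2.42 in Rebound. Against Vehicle 19 of 24 genes shifted towards TAM (12 without Vehicle mouse 54359), and against Rebound 23 of 24 (15 without 49849). With total counts as the only scaling, 23 did in both. In mean CPM ± SD, Mki67 was 178 ± 51.2 in TAM and 62.7 ± 47.7 in TC at Endpoint (n = 6 each), 80.3 ± 48.7 and 128 ± 38.1 in Vehicle (n = 5 each), and 42.5 ± 17.4 and 256 ± 104 in Rebound (n = 5 each). The shift was 2.74 ± 0.71 log2 units against Vehicle (adjusted p = 0.0133) and 4.13 ± 0.78 against Rebound (adjusted p = 0.00522). Of the 3 stages, Endpoint had the highest TAM mean and the lowest TC mean of Mki67. The TAM means of Top2a and Cdk1 were lower at Endpoint than in Vehicle (179 and 205 CPM, 64.9 and 85.5 CPM), and the summed list in TAM overlapped between Endpoint (993.1 to 1722 CPM) and Vehicle (350.3 to 1757 CPM). In TC the sum was 137.3 to 1289 CPM at Endpoint and 1711 to 3187 CPM in Vehicle, without overlap. The summed progenitor and tumour markers in TC were 320.4 to 2708 CPM at Endpoint, 2302 to 8855 CPM in Vehicle and 2642 to 8390 CPM in Rebound. Its part in the mitotic shift was not tested.

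**Figure D5:**
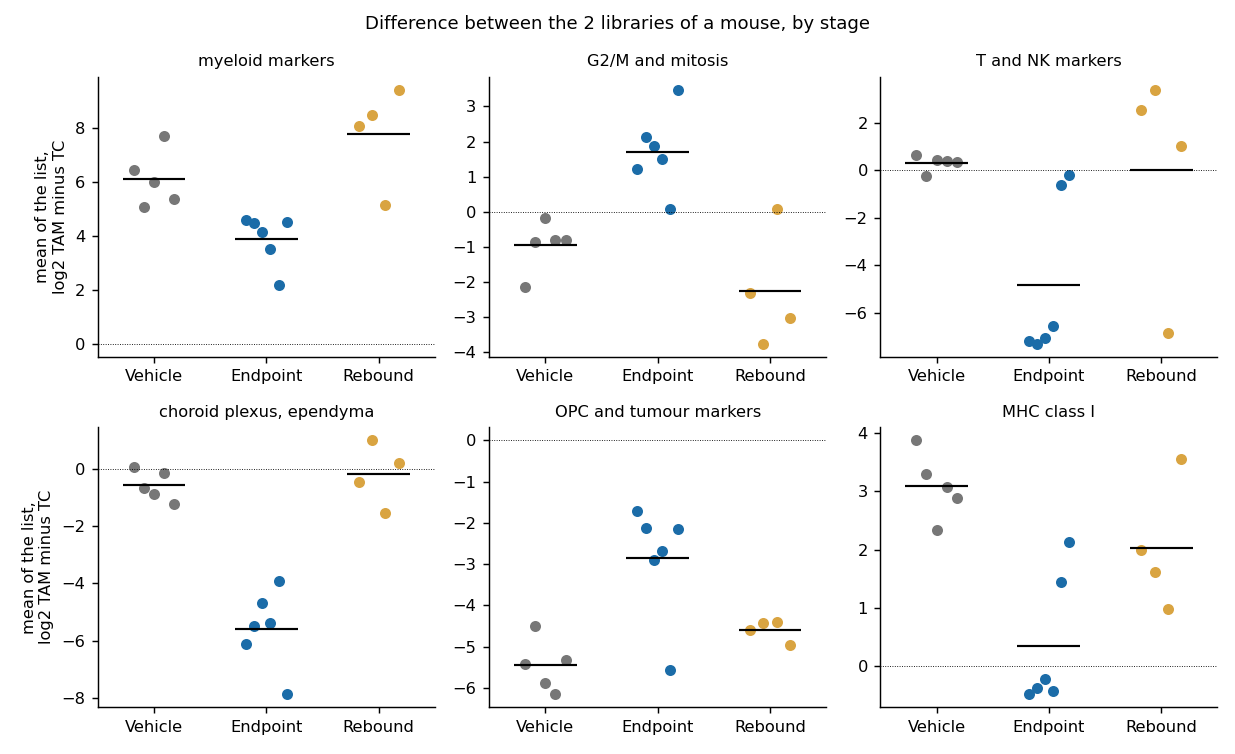
Mean log2 difference TAM minus TC over the genes of a list, one point per mouse and a bar at the group mean, in Vehicle (5 mice), Endpoint (6) and Rebound (4), for 6 lists. For the G2 and M list all Endpoint points are above 0 and all Vehicle points below it, with 1 Rebound mouse at 0.07. T and NK cell genes are below -6 in 4 Endpoint mice and in Rebound mouse 49827.

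Choroid plexus genes shifted towards TC. Against Vehicle 9 of 11 did (5 without 64247), and against Rebound 9 of 11. Their sum in TC was 5341 to 189900 CPM at Endpoint against 10.39 to 525.4 CPM in Vehicle and 4.458 to 968.6 CPM in Rebound, without overlap. Sostdc1 averaged 480 ± 665 CPM in TC at Endpoint, 3.48 ± 2.84 CPM in Vehicle and 3.82 ± 3.07 CPM in Rebound, and shifted by -4.66 ± 1.32 and -8.19 ± 1.09 log2 units. The first of these calls was lost without Vehicle mouse 64247 and without the mouse block (range over alternatives 0.000623 to 0.237). T and NK cell genes shifted towards TC in 7 of 13 cases against Vehicle and 6 of 13 against Rebound. The median shifts of this list were -7.42 and -8.17 log2 units, beside -5.35 and -7.98 for choroid plexus genes. The counts moved widely. They were 12 and 13 without 49843 and 49845, a choice made on the T cell values themselves. Against Vehicle the count was 2 or 3 without any 1 of 49823, 49825, 49830, 49831, 54359, 57098, 57682 and 64247. Against Rebound the count was 13 without 49827, whose TC library carried such genes, 10 without 49843 or 49845, and 0 to 2 without any 1 of the other mice.

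Antigen presentation genes shifted towards TC as well. For class I, 13 of 15 genes did against Vehicle and 4 of 15 against Rebound (15 and 12 without 49843 and 49845). Without 49845 alone the count against Rebound was 7. The class I sum in TC was 1608 to 10620 CPM at Endpoint (median 9775), 704.9 to 2407 CPM in Vehicle (median 757) and 567.6 to 7212 CPM in Rebound (median 2475), and the ranges overlapped. The lowest Endpoint sums were those of 49843 and 49845, the 2 mice with few T cell transcripts in TC. Leaving out these mice therefore favours a shift towards TC. The part of T cell transcripts in the class I values was not tested. In TAM the ranges overlapped as well (10460 to 12920, 7892 to 20970 and 12870 to 23800 CPM). For class II, 8 and 10 of 10 genes shifted towards TC. Here the TAM sum was lower at Endpoint (2798 to 4427 CPM) than in Vehicle (9859 to 23360 CPM) or Rebound (10560 to 83410 CPM), without overlap. The TAM minus TC difference of the myeloid markers was smaller at Endpoint, with a median of 3.88 log2 units against 6.16 in Vehicle and 8.76 in Rebound. Of these 19 genes, 7 shifted against Vehicle (2 with total counts only, and 2 without 49843 and 49845) and 18 against Rebound. The count against Vehicle was 2 without 54359 or 57682, 3 without 49831, 49843 or 57098 and 4 without 49823. Csf1r shifted by -4.65 ± 0.96 log2 units against Rebound (adjusted p = 0.0073) and by -2.21 ± 0.82 against Vehicle (adjusted p = 0.063). The myeloid sum in TC was 2770 to 15570 CPM at Endpoint, 358.3 to 3197 CPM in Vehicle and 107.7 to 2719 CPM in Rebound. The part of these TC transcripts in the shift was not tested.

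The single genes with the smallest p for a shift towards TAM against Vehicle were Ptn, Atp1b2, Ncan, Ccdc88a, Tpm1 and Atp6v0e2. The mean TC level of all 6 was lower at Endpoint than in Vehicle. Ncan, the proteoglycan neurocan, averaged 137 ± 74.4 CPM in TC at Endpoint, 949 ± 466 CPM in Vehicle and 1054 ± 386 CPM in Rebound, and 12.2 ± 3.29, 7.39 ± 1.63 and 30.2 ± 25.9 CPM in TAM. Its shift was 3.53 ± 0.41 log2 units against Vehicle (adjusted p = 0.000179). Ccdc88a, the actin-binding protein girdin, moved in both sorts, with 117 ± 26.8 CPM in TAM and 39.9 ± 23.4 CPM in TC at Endpoint and 29.3 ± 12.5 and 103 ± 47.8 CPM in Vehicle. Those with the smallest p towards TC were Fcgrt, Itm2c, Manba, Tmem86a, Got1 and Gas6. Fcgrt, the neonatal Fc receptor, averaged 109 ± 28 CPM in TC at Endpoint and 13.8 ± 6.81 CPM in Vehicle, with 155 ± 33.5 and 244 ± 66.7 CPM in TAM (shift -3.73 ± 0.37). Gas6, the ligand of AXL and MERTK, changed sides. It averaged 36.1 ± 11.6 CPM in TAM and 116 ± 101 CPM in TC at Endpoint, and 162 ± 97.3 and 24.9 ± 6.39 CPM in Vehicle (shift -3.93 ± 0.48, adjusted p = 0.00023).

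Against Rebound the leading genes towards TAM were Rab31, Ccdc88a, Syt11, Marcks, Nfia and Ncan, and those towards TC were Got1, Gpx8, Sdc4, Ahcyl2, Anxa4 and Sostdc1. Marcks, a membrane-bound actin regulator, averaged 1270 ± 217 CPM in TAM and 212 ± 198 CPM in TC at Endpoint, against 747 ± 282 and 686 ± 297 CPM in Rebound. Anxa4, an annexin, averaged 139 ± 26.4 and 91.3 ± 50.6 CPM at Endpoint and 379 ± 76.4 and 16.3 ± 8.76 CPM in Rebound. Igf1 differed by 0.62 log2 units at Endpoint, 4.71 in Vehicle and 6.46 in Rebound. Its TAM mean was 26.2 ± 43.2 CPM at Endpoint, 57.3 ± 31.3 CPM in Vehicle and 427 ± 99 CPM in Rebound, and its shift was -4.09 ± 0.90 against Vehicle and -5.84 ± 0.94 against Rebound (adjusted p = 0.00567 and 0.00257). Igf2 shifted by -5.02 ± 1.16 against Rebound (adjusted p = 0.012), a call that was lost without Rebound mouse 49041 or 49849 (range over alternatives 0.000165 to 0.0598). Igf1r showed no shift past the threshold (adjusted p = 0.384 and 0.395).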

How the data were processed

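The labels' protocols describe papain digestion of the tumours, sorting into a lysis reagent and preparation by SMART-Seq without strand marking, read as 50 bases from both ends. Overlapping antisense genes can therefore not be separated. The deposited table gives raw, whole-number counts for each gene symbol, which the authors did not normalize. The submitters' processing notes name STAR 2.3.0e, SAMtools and the build mm10, while the counting program and the gene annotation were not given in the sources used here. Every Endpoint and Rebound count is even, as when both reads of a fragment are counted, so an alternative halved those counts.

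From the counts, genes kept by filterByExpr were tested with edgeR 4.0.16 in R 4.3.3 (TMM scaling, glmQLFit with robust=TRUE, glmQLFTest), with mouse as a block, because same-numbered libraries carry the same mouse identifier in the labels. The correlation of the deviations of the 2 libraries of a mouse from their group means was -0.002 to 0.104 across genes. Calls are adjusted p under 0.05 over all genes tested. SE comes from the quasi-likelihood F statistic. The stages were compared in 1 fit of 32 libraries with an interaction term. No 2 libraries of a group agreed within sampling noise (lowest chi-square per degree of freedom 10.5). Coordinates are those of GENCODE M21, in which 20953 symbols were found, and 1 of 732 list symbols had no match.

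Named genes were the 12 per sort with the largest weakest pair difference of log2(CPM + 1) among called genes with a mean of at least 100 CPM in the higher sort, the 12 with the most variable pair difference, the 6 per direction with the smallest p for a shift against each other stage, and list members. The 34 gene lists, 13 marker lists, members and rules were chosen with earlier results of these data known. Alternatives were DESeq2 1.42.0, RLE size factors, total counts only, no filter, halved counts, a test against a fold of 2, no mouse block, all 32 libraries with no block, each mouse left out and, added after seeing the data, 49843 and 49845 left out. On simulated counts for 13355 genes the main test recovered 52.2% of 2-fold and 100% of 4-fold and 8-fold changes, with 5.62% false calls. For 15289 genes the test of the shift against Vehicle recovered 7.5, 77.6 and 97% of 2-fold, 4-fold and 8-fold changes, with 1.63% false calls. The simulation gave every gene the same spread and changed only a small set of genes. These rates therefore need not hold for genes that varied widely between TC libraries. A few genes of the lists are not reported here by name.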

Additional observations from a re-analysis of the deposited data

Results flagged for a closer look

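Of 46 groups of 6 libraries examined, 13 held a library apart from the rest by Dixon's criterion, taken on CPM and not on its log. The groups share libraries and some share genes, such as Csf1r and the myeloid sum. The number of flags is therefore not to be set against a chance rate. The TC library of 49843 was apart for the sum of myeloid markers (16340 CPM, others 2866 to 6888), of progenitor and tumour markers (2842 CPM, others 330.5 to 553.4) and of neutrophil markers (134.1 CPM, others 12.79 to 55.07), for the share of Rn45s (16.9%, others 6.345 to 7.8%), for Csf1r (1234 CPM, others 170.2 to 513.8) and for Pdgfra (468.2 CPM, others 49.18 to 118.5). The TAM library of the same mouse was apart for Igf1 (117.1 CPM, others 5.75 to 14.27). The TC library of 49845 was apart for choroid plexus markers (196400 CPM, others 5607 to 66340) and for Ttr (184800 CPM, others 5213 to 62950). The TC library of 49825 was apart for B cell markers (745.5 CPM, others 6.582 to 53.74) and for Cd74 (2708 CPM, others 168.9 to 721.5). In TAM, 49830 was apart for dendritic cell markers (99.68 CPM, others 58.58 to 70.91) and 49823 for Pdgfra (10.91 CPM, others 0.223 to 1.439).

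Of 33 genes followed across stages, 27 had a difference between sorts that differed between Endpoint and Vehicle, beside 22.2% of all genes tested. Most of the 33 were chosen for a small p for a shift against Vehicle or Rebound. Their counts were therefore largely set by that choice. In log2 units, the shift towards TAM was 3.11 for Ptn, 2.42 for Atp1b2, 3.53 for Ncan, 3.48 for Ccdc88a, 2.88 for Tpm1, 2.66 for Atp6v0e2, 1.66 for Rab31, 2.99 for Syt11, 2.15 for Marcks and 1.26 for Nfia. Among mitotic genes it was 2.74 for Mki67, 2.06 for Top2a, 3.73 for Hmmr and 1.99 for Cdk1. The shift towards TC was -3.73 for Fcgrt, -2.69 for Itm2c, -2.38 for Manba, -3.24 for Tmem86a, -1.97 for Got1, -3.93 for Gas6, -4.23 for Gpx8, -1.91 for Sdc4, -2.01 for Ahcyl2 and -3.26 for Anxa4, and -3.52 for Ttr, -4.09 for Igf1 and -4.66 for Sostdc1. The adjusted p (edgeR) was 0.0418 for Top2a and lower for the others. The call of Top2a was lost with no filter, without the mouse block and without 49825, 49830, 49831, 54359, 54363, 57682 or 64247 (range 0.00434 to 0.1), and that of Ttr without the mouse block or without 54363 (0.000149 to 0.21).

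Against Rebound, 29 of the 33 genes shifted, beside 14.8% of all genes tested, a count set in large part by the same choice. Towards TAM these were Rab31 (2.32), Ccdc88a (3.01), Syt11 (3.06), Marcks (2.93), Nfia (1.65), Ncan (2.39), Ptn (1.34), Atp1b2 (1.2), Tpm1 (1.65), Mki67 (4.13), Top2a (3.68), Hmmr (5.58) and Cdk1 (3.02). Towards TC they were Got1 (-2.28), Gpx8 (-6.02), Sdc4 (-3.45), Ahcyl2 (-3.47), Anxa4 (-3.89), Sostdc1 (-8.19), Fcgrt (-2.37), Itm2c (-1.65), Manba (-1.31), Tmem86a (-2.43), Gas6 (-2.31), Csf1r (-4.65), Ttr (-7.98), Mbp (-4.0), Igf1 (-5.84) and Igf2 (-5.02). The call of Hmmr was lost without 49849 (adjusted p = 0.0513, range over alternatives 1.41e-07 to 0.0513), that of Tpm1 without 49849 (0.000194 to 0.0512), that of Mbp without 49041, 49059 or 49849 (9.54e-06 to 0.0675), and that of Manba with total counts only (7.91e-05 to 0.0549). Without the mouse block or without 49849 the calls of Ptn and Atp1b2 were lost, and that of Ptn also without 49041 (0.00252 to 0.125 for Ptn, 0.000419 to 0.204 for Atp1b2).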

How the results depend on the processing

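Against a fold of 2 in place of 0, 3380 genes differed between the sorts at Endpoint, 1104 higher in TAM and 2276 in TC. Under the other alternatives the 3 counts were within 1.5 times the reported ones, and leaving out 1 mouse gave 5061 to 6364 genes (2324 to 3005 and 2737 to 3404). Without the mouse block as pairing, 6696 genes were called, and every gene shared between the calls kept its direction.

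For the shift against Vehicle, DESeq2 gave 2259 genes towards TAM, and total counts only gave 3992 towards TAM and 1096 towards TC. Leaving out 1 mouse gave 2537 to 3995 genes (936 to 1938 and 1601 to 2057). For the shift against Rebound, DESeq2 gave 4222 genes (1614 and 2608), total counts only gave 2329 towards TAM and 844 towards TC, and no filter gave 964 towards TC, with more genes tested. Leaving out 1 mouse gave 764 to 3362 genes (296 to 1412 and 468 to 2247), the lowest without 49849. Apart from the number of genes tested, the cause of these changes was not tested.

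Differences that turned direction were all among those that did not pass the test as reported. With all 32 libraries and no block, TAM minus TC was -0.80 for Ciita, -0.37 for H2-Aa, -0.21 for H2-K1 and -0.083 for Pdgfrb. Without the mouse block it was -0.82, -0.39, -0.24 and -0.11 for these genes, and -0.016 for H2-Eb1. Without 49843 and 49845 it was -0.12 for Cd44, -0.16 for Ciita, -0.36 for H2-Aa, -0.56 for H2-K1 and -0.29 for Tap1. Pdgfrb was -0.024 with halved counts and -0.11 with total counts only. Leaving out 1 mouse gave -0.071 to 0.856 for H2-Aa, -0.26 to 0.521 for H2-K1 and -0.32 to 0.409 for Pdgfrb. The shift of Mbp against Vehicle was 0.022 without the block and 0.32 with total counts only. That of Pdgfra against Rebound, -0.10 as reported, was 0.025 with halved counts, 0.031 with no filter, 0.37 without the block, 0.47 with total counts only, 0.98 without 49843 and 49845, and -0.806 to 0.49 without 1 mouse. Calls lost against a fold of 2 were those of B2m, Cdk1, Gas6, Mki67, Nfia and Rab31, among others, and Cenpf missed the threshold there (0.0512) and without the block (0.0556). Of 2335 gene values under alternatives, 2190 kept their direction and side of the threshold, 67 lost the call, 56 gained it and 22 turned.

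Precision is limited by 6 mice and by TC libraries down to 4180176 counts. In simulated counts with the same spread for every gene, 2-fold differences were found in about 52.2% of cases.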
